A study of Mus musculus with 35 samples.

Results

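The cells described here tested what blocking a lactate transporter did to the transcripts of single macrophages kept in lactate. They were 9 of the 35 single-cell libraries of the series. The 4 lactate+AZD cells (T10, F8, F9 and W10) had received 10 mM lactate together with 300 nM AZD3965, and the 5 lactate cells (T11, T13, F18, W5 and W20) had received 10 mM lactate alone, in both cases for 72 h. All came from the peritoneum of male C57BL/6 mice aged 6 months, so lactate and its duration were shared by both groups, and the labels give no difference between them other than the drug. Part of each cell's cytoplasm had been drawn into a nano-capillary for a metabolome before the rest was lysed for SMART-seq2, and a library therefore holds the RNA of a part of 1 cell. None of the libraries of the series had AZD3965 without lactate. One more lactate+AZD cell, W14, was left out. It was set aside on measured values, its levels of Sparc and Col1a2, matrix genes of fibroblasts, which stood at 7500 and 4350 CPM (counts scaled to the total of the cell). The cell just inside the limit was the lactate cell W5, at 3310 CPM for Sparc and 922 CPM for Col1a2. Sparc was at 0 in the other 8 cells. Col1a2 had 22.8 CPM in T13 and was at 0 in the remaining cells.

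The sources used here name no animal or culture for any cell, so each treatment counted as 1 sample and no test was run. The counts of a group's cells were added up, and the log2 ratio of the resulting CPM, lactate+AZD over lactate, was taken for each gene. Each ratio has an exact 95% binomial interval (Clopper-Pearson). It covers counting error only, since the reads carried no molecular identifiers and PCR copies cannot be told from separate molecules. The stability over cells is given by the lowest and highest ratio with any 1 of the 9 cells left out. Cells carried 58444 to 149792 counts and 4812 to 6700 detected genes with AZD3965, against 90523 to 175450 counts and 5236 to 6285 genes without. The macrophage label held in each cell: Lyz2, Csf1r, Adgre1 and Cd68 had counts in all 9, and 18 macrophage markers added up to 42500 to 88400 CPM with AZD3965 and 56800 to 124000 CPM without. The 14 fibroblast markers reached 155 to 6040 CPM and 1500 to 9900 CPM, with W5 highest and Lum, Pdgfra, Fbln1, Col6a1 and Thy1 at 0 in the 9 cells. Fn1 alone made up the 6040 CPM of W10 and the 155 CPM of F9. In W5, 9 of the fibroblast markers had counts, against 1 or 2 in each other cell of the comparison. Mesothelial and mast cell markers had no count. The cell names start with T, F or W. What the letters stand for is not given in the sources used here, and ratios within a letter are given beside the pooled ones, with a sum of 0 set to 3 counts there too.

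Monocarboxylate transporters carry lactate and pyruvate together with a proton across the plasma membrane. MCT1, encoded by Slc16a1, takes lactate up or lets it out along its gradient, and AZD3965 is a small molecule that blocks it. Inside a macrophage, lactate can be oxidized to pyruvate for the mitochondria, can acidify the cytosol and is known as a signal that dampens inflammatory genes and favours repair genes.

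Across genes, the ratios centred close to no change, with many genes far off on either side. Of 35624 gene symbols, 5882 were widely detected, that is, they had a count in at least 3 of the 4 lactate+AZD cells or 3 of the 5 lactate cells and 10 or more counts in all. Their median log2 ratio was 0.03. In the sums, 930 genes (15.8%) were 2-fold or more higher with AZD3965 and 1047 (17.8%) were 2-fold or more lower. With any 1 cell left out, 432 genes (7.34%) stayed 2-fold or more higher and 511 (8.69%) stayed 2-fold or more lower, and in what follows a gene that held past 2-fold is one of these. A gene that passed the detection filter only through the group where it was high was favoured to differ, so these counts are descriptions. The lactate+AZD sum was the smaller one, with 439823 counts against 720696, and 127 of the 511 lower genes had no count in it, whereas 38 of the 432 higher genes had none in the lactate sum. These 0 sums were set to 3 counts per group. A fold given as 'at least' is then a lower bound with respect to the group at 0 only. It leaves out counting error and the weight of single cells in the other group. For Egr1, described below, the log2 ratio with the floor was 4.13 and its interval began at 3.75. With TMM factors, which shift the median of all genes by -0.185, the counts were 346 higher and 650 lower, so that 34.7% of the calls were higher in place of 45.8%. Single cells weighed on the counts: 271 genes were higher without F8 and 286 without T10, and 308 were lower without W10. Without W5, the lactate cell with Sparc and Col1a2, 471 were higher and 389 lower. With the log2 ratios averaged within T, F and W, 186 genes were 2-fold or more higher and 114 lower, so that the higher genes were then the more numerous. On the scale log2(CPM/100 + 1), which compresses low values, 4 were higher and 3 lower.

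How many genes held past 2-fold went with how well a gene was counted. Among 2389 genes with 10 to 49 counts over the 9 cells, 287 were higher and 363 lower (27.2% together). Among 1540 genes with 100 to 499 counts, 36 were higher and 26 lower (4.03%). Of 255 genes with 500 or more counts, 1 was higher and 4 lower (1.96%), namely Mfsd12, a lysosomal cysteine carrier, and Spp1, Slpi, Mfge8 and Pf4.

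**Figure D1:**
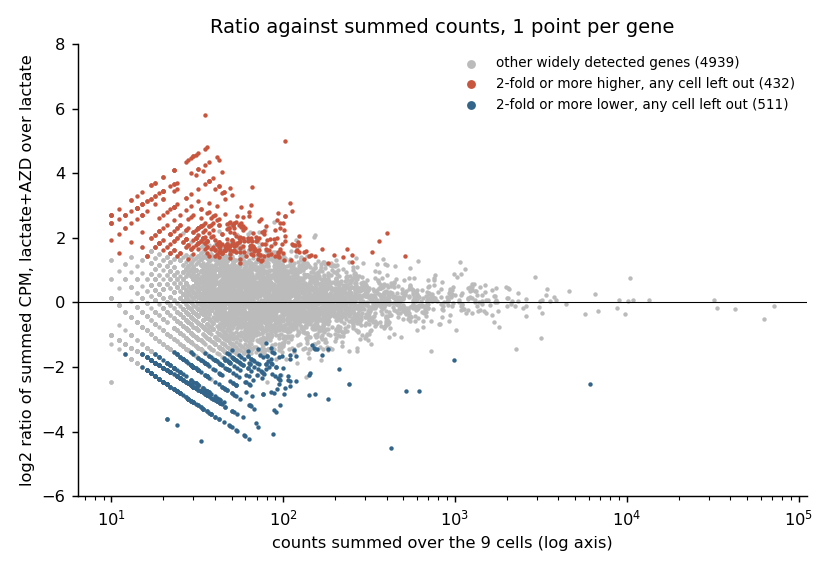
Each point is 1 of 5882 widely detected genes, with counts summed over the 9 cells on the horizontal log axis and the log2 ratio of summed CPM (lactate+AZD over lactate) on the vertical axis. Red points (432) stayed 2-fold or more higher and blue points (511) 2-fold or more lower with any 1 cell left out; both lie mostly below 100 counts.

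The 15 genes that stood highest with AZD3965, ranked by the smallest ratio that leaving out a cell gave, were Dusp1, Dip2b, Cog3, Trmt10c, Sfpq, Med23, Mob1b, Prps2, Suco, Egr1, Zfp869, Rab29, Pex11a, Herc6 and Bloc1s5. Dusp1, the phosphatase that switches off p38 and JNK kinases, had 234 CPM in T10, 68.4 in F8, 0 in F9 and 407 in W10. Among the lactate cells it had 30.8 CPM in W20 and 0 in the other 4. The drug-treated cells T10, F8 and W10 thus lay above every lactate cell and F9 did not, for a log2 ratio of 5.01 (3.73 to 6.66) and 4.20 at the least with a cell left out. Egr1, an early growth response transcription factor, had 113, 240, 22.1 and 0 CPM in T10, F8, F9 and W10 and no count in the lactate cells, at least 17.5-fold higher. Dip2b had 66.4 to 92.1 CPM in the lactate+AZD cells and 1 count in all the lactate cells together, a log2 ratio of 5.80 whose interval of 3.22 to 11.14 shows how little the second value weighs. Sfpq, an RNA-binding protein of paraspeckles and spliceosomes, had 33.2 to 86.8 CPM against at most 12.6 (log2 ratio 4.62, 2.64 to 7.73). Med23, a subunit of the Mediator complex, had 44.3 to 77.9 CPM and no count in the lactate cells, at least 15.8-fold higher. The cells of the groups did not overlap for Dip2b, Sfpq and Med23.

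Other genes among the 15 serve the Golgi, lysosomes, peroxisomes and mitochondria. Cog3, of the conserved oligomeric Golgi complex, had 170, 85.6 and 80.1 CPM in T10, F8 and W10 and no count in F9 or in any lactate cell (at least 22.4-fold higher). Bloc1s5, of a complex that sorts cargo to lysosome-related organelles, had 156, 34.2 and 73.4 CPM in the same cells and was likewise at 0 elsewhere (at least 19.1-fold). Mob1b, an adaptor of the Hippo kinases, was at least 20.2-fold higher, and 221 CPM of F9 stood beside 0 in F8. Trmt10c, a subunit of mitochondrial RNase P, had a log2 ratio of 4.76 (2.79 to 7.86), and Pex11a, which elongates peroxisomes for division, 4.36 (2.35 to 7.48). For each of these 5 genes 1 of the 4 drug-treated cells was at 0.

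**Figure D2:**
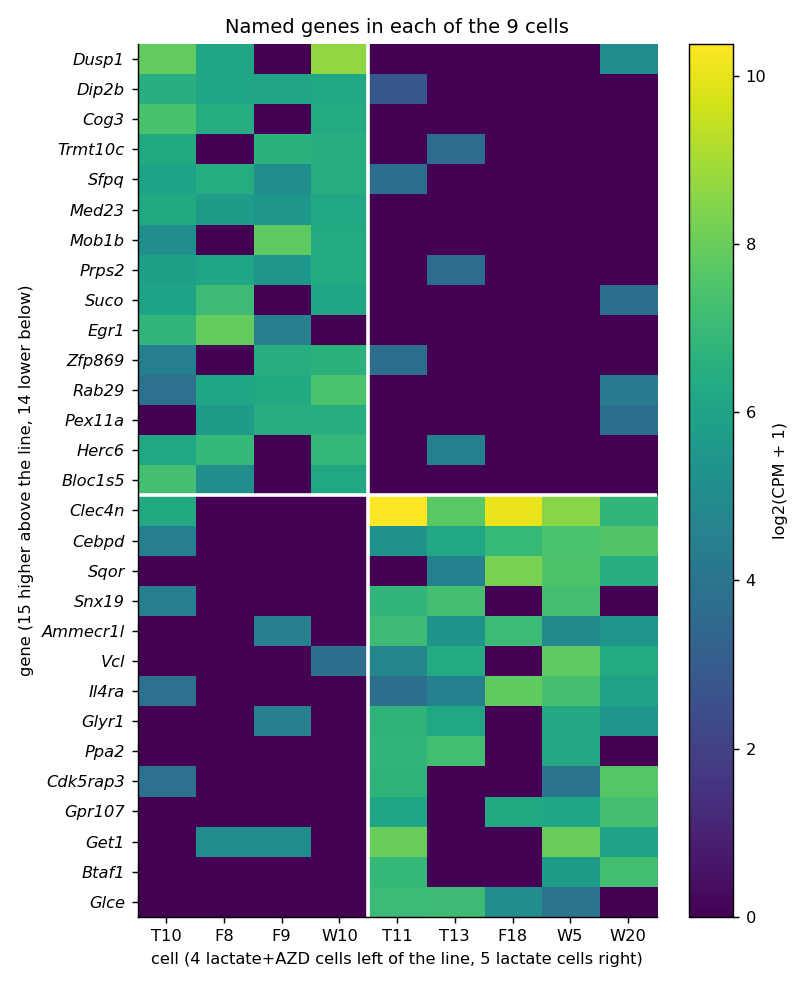
Colour gives log2(CPM + 1) of 29 genes (rows) in the 4 lactate+AZD cells and the 5 lactate cells (columns), with 15 higher genes above and 14 lower genes below the horizontal line. Dark cells have no count; Dip2b, Sfpq, Med23, Prps2 and Rab29 had counts in each lactate+AZD cell, and Clec4n, Cebpd, Ammecr1l and Il4ra in each lactate cell.

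Of the 15 lowest genes, 14 are described, namely Clec4n, Cebpd, Sqor, Snx19, Ammecr1l, Vcl, Il4ra, Glyr1, Ppa2, Cdk5rap3, Gpr107, Get1, Btaf1 and Glce. Clec4n, which encodes Dectin-2, a lectin receptor for fungal mannans, had 1330 CPM in T11, 211 in T13, 1070 in F18, 367 in W5 and 111 in W20. With AZD3965 it had 77.9 CPM in T10 and no count in F8, F9 and W10, so the groups did not overlap. The log2 ratio was -4.52 (-5.53 to -3.66) and lay between -5.83 and -3.84 with a cell left out, and within T cells it was -3.26. In F and W the drug-treated cells had no count. Clec4n was the best counted of these 14 genes, with 413 counts in the lactate cells and 11 in the others, and T11 had more of them than any other cell. Cebpd, a transcription factor of the acute-phase response, had 37.7 to 191 CPM in the lactate cells and 21.2 CPM in T10 as its 1 value above 0 with the drug (log2 ratio -4.09, -6.40 to -2.50). Here too the cells of the groups did not overlap. Il4ra, the signalling chain of the IL-4 and IL-13 receptors, ran from 12.6 to 232 CPM in the lactate cells and had 14.2 CPM in T10 and 0 in F8, F9 and W10. Its log2 ratio was -4.15 (-7.23 to -2.23), and T11 at 12.6 lay below T10. With W14 put back the Il4ra ratio was 0.26.

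Mitochondrial and structural genes made up part of the rest. Sqor, which oxidizes sulfide in mitochondria, had no count with AZD3965 and 22.8, 309, 180 and 92.5 CPM in T13, F18, W5 and W20 (at least 14.4-fold lower), with T11 at 0 too. Ppa2, the mitochondrial pyrophosphatase, was lower too, with 113, 148 and 74.9 CPM in T11, T13 and W5 and no count in the other cells. Vcl, which couples integrins to actin, had a log2 ratio of -4.22 (-7.30 to -2.30), and Get1, which inserts tail-anchored proteins into the ER membrane, -3.39 (-5.05 to -2.11). Gpr107, Btaf1 and Glce had no count in the drug-treated cells and were at least 10.6-, 10.2- and 10.2-fold lower. Some of the genes named here and in what follows overlap another gene in GENCODE, so that reads could be of either: Dusp1 with Ergic1, Cebpd with Spidr, Vcl with Ap3m1, Irf9 with Rnf31, Psph with Cct6a, Junb with Prdx2, Bid with Bcl2l13 and Pfkp with Pitrm1.

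Some better counted genes were looked at after their values had been seen, because each had 100 or more counts or all cells of one group on one side. Epas1 encodes HIF-2alpha, an oxygen-regulated transcription factor. It had 474, 479, 708 and 354 CPM in T10, F8, F9 and W10 and 220, 160, 144, 127 and 148 CPM in T11, T13, F18, W5 and W20. No lactate cell reached the lowest drug-treated cell. The log2 ratio was 1.57 (1.24 to 1.91), stayed within 1.38 to 1.76 with any cell left out, and was 1.33, 2.11 and 1.35 within T, F and W. Drg1, Tsn, Ppp2r5c and Dgkz also had each drug-treated cell above each lactate cell, with log2 ratios of 2.46, 1.77, 2.04 and 1.57.

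On the low side, Ifngr1, the ligand-binding chain of the interferon-gamma receptor, had 49.6, 0, 122 and 100 CPM in T10, F8, F9 and W10. It had 214, 217, 166, 202 and 210 CPM in T11, T13, F18, W5 and W20, a narrow range that lay wholly above the other cells. The log2 ratio was -1.45 (-2.04 to -0.90), and -2.12, -1.16 and -1.04 within the letters. Itga5, the alpha chain of the fibronectin receptor, had at most 56.7 CPM with AZD3965 and at least 74.0 CPM without (log2 ratio -2.83), and its highest lactate cell was W5 at 592 CPM, the cell with the most fibroblast markers. Mkrn1, Tmem50b and Ramac were separated in the same direction, with log2 ratios of -2.59, -2.86 and -2.44. Spp1, which encodes osteopontin, was lower too, at a log2 ratio of -2.54, but T13 alone held 66.5% of its counts at 23300 CPM, and F9 with 3420 CPM lay above F18 with 55.2. Within F cells the Spp1 ratio was 5.23, opposite to T (-2.94), and W10 had no count.

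**Figure D3:**
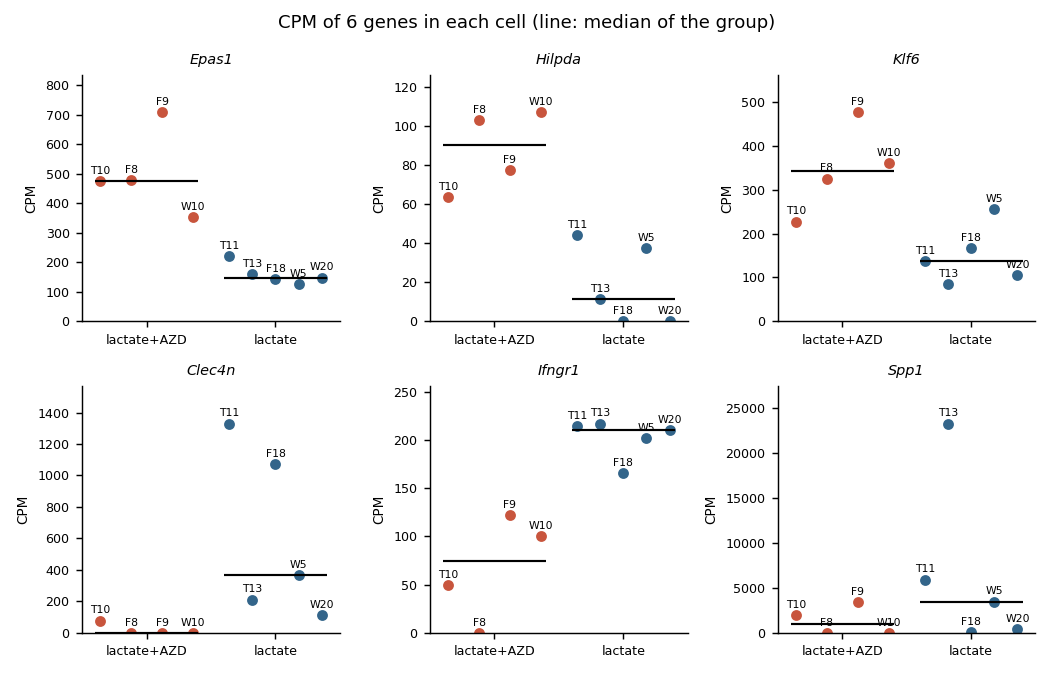
CPM of 6 genes in each named cell, with lactate+AZD cells in red, lactate cells in blue and a line at the median of the group; each axis starts at 0. Epas1 and Hilpda show no overlap with the drug-treated cells above, Clec4n and Ifngr1 none with them below, and Klf6 and Spp1 overlap.

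The transporter that AZD3965 blocks was barely captured. Slc16a1 (chr3:104638668-104658462, GRCm38, forward strand) had 24 counts in W10 (160 CPM) and 15 in T13 (85.5 CPM) and no count in the other 7 cells, where 3 counts would correspond to 18.5 to 51.3 CPM. It did not pass the detection filter, and a difference could not be read at this depth: the log2 ratio of 1.39 went from -1.01 to 3.31 as single cells were left out. Of 21 genes of monocarboxylate transport and lactate conversion, 12 were measured, none held past 2-fold and their median was 0.23 (0.02 to 0.42 with a cell left out). Slc16a3, the exporter MCT4, had 57 counts with and 74 without the drug (log2 ratio 0.34, -0.19 to 0.85). Bsg, the chaperone that carries MCT1 and MCT4 to the membrane, stood at -0.73 (-1.07 to -0.41), and Slc16a10, which carries aromatic amino acids, at -0.90 (-1.55 to -0.30). Ldha, the lactate dehydrogenase subunit of glycolytic cells, had 1350 to 1820 CPM with and 1020 to 2090 CPM without the drug (0.21, 0.07 to 0.35). The mitochondrial pyruvate carrier genes Mpc1 and Mpc2 were at 0.64 (-0.01 to 1.30) and 0.55 (-0.18 to 1.26).

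Immediate early genes, which cells transcribe within minutes of a stimulus, had the highest median log2 ratio among the lists with 3 or more measured genes, apart from the genes the study's text names for the drug. The counts of list members here and below stand beside shares over all genes of 7.34% held past 2-fold higher and 8.69% lower. Of 34 listed, 17 were measured. Of these 6 held past 2-fold higher (Dusp1, Egr1, Egr2, Zfp36l2, Jund and Klf6), against 7.34% of all genes, and 0 lower, and the median was 0.98. Egr2, a zinc finger factor of alternatively activated macrophages, had 347, 975, 22.1 and 968 CPM in T10, F8, F9 and W10 and 327, 205, 0, 60.0 and 86.4 CPM in T11, T13, F18, W5 and W20. F9 lay within the lactate cells and the other 3 drug-treated cells above them (log2 ratio 1.91, 1.59 to 2.25). Klf6 was higher at 227 to 476 CPM against 85.5 to 255 CPM (1.24, 0.86 to 1.61), and T10 at 227 lay below W5. The mRNA-decay factor Zfp36l2 and the AP-1 subunit Jund had log2 ratios of 1.68 and 1.51.

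Other members of the list differed from these. Fos stood at a log2 ratio of 2.25, but T10 held 65.4% of its counts and without it the ratio was -0.24. Atf3 and Jun stood at 1.33 and 0.98, both with F8 highest (1510 and 1060 CPM). Junb was at -0.47 (-0.82 to -0.12) and Dusp6, the phosphatase of ERK, at -1.41 (-2.10 to -0.77). The summed CPM of the 17 genes was 6790 in F8, the cell with the fewest counts, 2350 to 3330 in the other 3 drug-treated cells and 1530 to 2920 in the lactate cells, so the groups overlapped. Without F8 the median was 0.61, and it was 0.39, 0.80 and -0.13 within T, F and W cells. When the detection filter was also applied anew without F8, the median was 0.08, and with a detection limit of 5 counts it was 0.35.

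Dusp1 was the best counted of the 15 highest genes. In its promoter, shown because it is the only one of 23 promoters of the measured immediate early genes with a full cAMP response element, the capitals mark that element (TGACGTCA, which reads the same on both strands), starting 143 bases before the RefSeq start. The stretch is chr17:26508520-26508622 (GRCm38.p6, reverse strand), before the RefSeq start and overlapping no exon of the gene in GENCODE, where longer transcript models begin farther upstream.
Dusp1: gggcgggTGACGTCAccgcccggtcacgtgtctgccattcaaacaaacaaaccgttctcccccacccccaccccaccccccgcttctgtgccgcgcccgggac
Of 32851 RefSeq promoters, 1.36% held the element within 150 bases before the start. The match is a description of the sequence and not of a factor bound there.

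Among the lists with 3 or more measured genes, sterol synthesis had the lowest median with AZD3965 apart from the inflammatory list of 8. These enzymes build cholesterol from acetyl-CoA and share control by SREBP2. Of 28 listed, 19 were measured. Of these 10 were 2-fold or more lower in the sums (all genes: 17.8%) and none 2-fold higher, and the median was -1.0, against 0.03 for all genes. Idi1, Sqle, Sc5d and Hsd17b7 held past 2-fold lower, 4 of 19 beside 8.69% of all genes. Idi1, the isopentenyl diphosphate isomerase, had no count in the drug-treated cells and 88.0, 155 and 67.4 CPM in T11, F18 and W5, with T13 and W20 at 0 (at least 7.53-fold lower). Sqle, squalene epoxidase, was at least 5.29-fold lower, with 177 CPM in F18, 28.5 in T13 and 37.5 in W5, but its log2 ratio was 0.52 with W14 put back. Hsd17b7 was at least 3.87-fold lower. Sc5d, the sterol desaturase, was found in each lactate cell at 43.2 to 232 CPM and in F9 at 88.5 CPM (log2 ratio -2.24, -3.52 to -1.17).

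Regulators and other enzymes of the pathway lay closer to 0. Among the better counted members, Msmo1 was at -0.29 (-0.77 to 0.18), Dhcr7 at -0.23 (-0.83 to 0.35) and Cyp51 at -0.84 (-1.51 to -0.20). Hmgcs1 and Insig1, both classical SREBP targets, were at -1.46 (-2.50 to -0.54) and -1.29 (-2.12 to -0.53) and did not hold past 2-fold. Srebf2 itself was at -0.33 (-1.20 to 0.50). In summed CPM of the 19 genes, F18 stood at 2640 and the other lactate cells at 765 to 1250, while F9 stood at 1380 and the other drug-treated cells at 441 to 588. F9 therefore overlapped with the lactate cells and the 3 others lay below each of them. The median of these 19 genes lay between -1.23 and -0.63 with any cell left out and was -0.43, -0.87 and -0.60 in T, F and W cells. It was -0.16 with W14 put back, -0.53 without W5 when the filter was applied anew, and -0.31 over the genes detected in 5 of the 9 cells.

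The promoters of 3 of these genes are shown with the CCAAT box, which binds NF-Y, in capitals on either strand (it reads ATTGG here), and with the sterol regulatory element in capitals in Hmgcs1. Hmgcs1 is shown because, among 22 promoters of 16 measured sterol genes in the RefSeq table, it alone had that element in the spelling searched (TCACNCCAC). Sc5d and Hsd17b7 are shown as genes that held past 2-fold. The stretches overlap no exon of their gene in GENCODE and lie at chr13:119690201-119690350 (forward strand) for Hmgcs1, chr9:42264301-42264450 (reverse) for Sc5d and chr1:169969242-169969355 (reverse) for Hsd17b7, all in GRCm38.p6.
Hmgcs1: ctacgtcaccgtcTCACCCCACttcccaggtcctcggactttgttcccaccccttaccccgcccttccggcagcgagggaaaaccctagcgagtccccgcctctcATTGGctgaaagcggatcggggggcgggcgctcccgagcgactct
Sc5d: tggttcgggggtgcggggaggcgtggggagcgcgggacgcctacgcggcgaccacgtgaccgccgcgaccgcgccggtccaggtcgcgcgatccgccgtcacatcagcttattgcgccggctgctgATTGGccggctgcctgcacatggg
Hsd17b7: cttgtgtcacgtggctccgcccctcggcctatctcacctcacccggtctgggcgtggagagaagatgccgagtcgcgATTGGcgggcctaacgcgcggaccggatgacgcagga
The CCAAT box began 45, 24 and 73 bases before the start in Hmgcs1, Sc5d and Hsd17b7. In the 150 bases before the start, 14 of the 22 sterol promoters (63.6%) held a CCAAT box, against 24.5% of all 32851 promoters, and the sterol regulatory element was found in 0.639% of all. An absent match says only that these letters are not in this window.

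**Figure D4:**
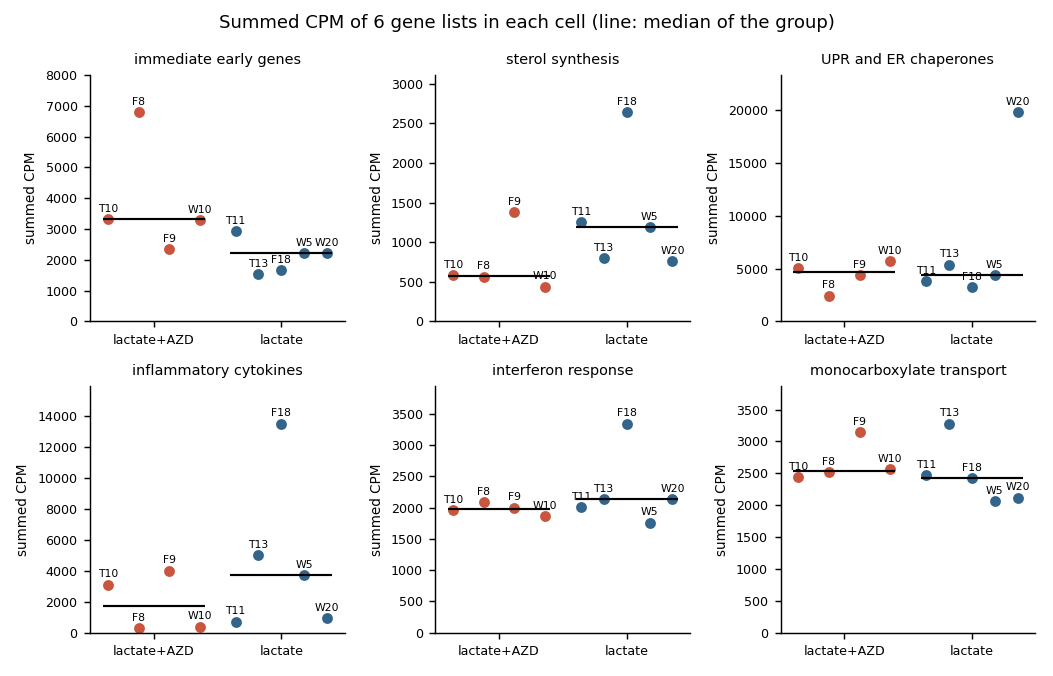
Summed CPM of the measured members of 6 gene lists in each named cell, lactate+AZD in red and lactate in blue, with a line at the median of the group and axes from 0. Single cells stand apart: F8 at 6790 for immediate early genes, F18 at 2640 for sterol synthesis and W20 at 19800 for the unfolded protein response.

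Chaperones of the endoplasmic reticulum showed how far 1 cell could carry a list. Of 22 genes of the unfolded protein response, 21 were measured, with a median of -0.78, and 1 held past 2-fold higher and 1 lower (all genes: 7.34% and 8.69%). Hspa5, the ER chaperone BiP, had 8880 CPM in W20, 63.5% of its counts in the 9 cells, and 257 to 1540 CPM in the other 8. Its ratio of -1.43 became 0.38 without W20. The median of the list became 0.24 without W20, and it was -0.18, 0.48 and -1.34 within T, F and W. Dnajb9, a BiP cochaperone, did not rest on W20: it had 135 and 60.1 CPM in T10 and W10, 0 in F8 and F9, and 74.1 to 271 CPM in the lactate cells (log2 ratio -1.62, -2.26 to -1.03). Atf6, a membrane-bound sensor of the response, was higher at 1.61 (0.92 to 2.32), and T10 at 35.4 CPM lay below T11 and F18.

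Inflammatory genes were few and mixed. Of 23 cytokine and inflammasome genes, 8 were measured, 1 held past 2-fold higher and 3 lower (all genes: 7.34% and 8.69%), and the median was -1.19. With W14 put back the median was 0.14. Tnf had 56.7, 85.6 and 44.3 CPM in T10, F8 and F9, 0 in W10 and no count in the lactate cells, on 17 counts in all (at least 9.29-fold higher). Ptgs1, the constitutive cyclooxygenase, was lower at -2.05 (-2.69 to -1.46), as were the inflammatory caspases Casp1 (-1.61, -2.92 to -0.49) and Casp4 (-1.81, -3.80 to -0.26, and 0.18 with W14 put back). Saa3, an acute-phase protein, ran from 0 in F8 to 3510 CPM in F9 and from 346 in T11 to 12900 CPM in F18, and its ratio of -1.09 became -0.36 without F18. The median was 0.33 within T cells, -0.35 within F and -1.13 within W.

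Among chemokine genes, 8 of 24 were measured with a median of -0.26. Cxcr4, the receptor of CXCL12, held past 2-fold higher (2.98, 1.56 to 4.72), on 24 counts against 5. Ccl9 and Pf4 held past 2-fold lower, at -2.53 (-3.22 to -1.91) and -2.75 (-3.23 to -2.29). Pf4, also a platelet gene, had 2550 CPM in F18, 1070 in T13 and 0 in T11 and W20, and no other marker of red cells or platelets had a count in the 9 cells. Ccl6, the best counted chemokine, was at 0.25 (0.06 to 0.44), with 2070 CPM in W10 and a ratio of -1.23 without that cell.

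Interferon genes did not share a direction. Of 34 listed, 19 were measured, 2 held past 2-fold higher and 5 lower (all genes: 7.34% and 8.69%), and the median was -0.09. Among those that held past 2-fold lower were Stat2, a signal carrier of the type I interferon receptor, at -2.51 (-4.87 to -0.82), Oas1a at -1.40, Gbp3 at -1.68 and Ifngr1. The second chain of the interferon-gamma receptor, Ifngr2, was higher at 1.32 (0.72 to 1.93), as was Irf9 at 1.87 (0.88 to 2.94), a DNA-binding subunit of the interferon-activated factor ISGF3. Ifitm2 and Ifitm3, closely related neighbours whose reads counting could split, stood at 0.005 and -0.09. In class I antigen presentation 12 of 16 genes were measured and Psmb10, an immunoproteasome subunit, held past 2-fold lower at -2.01 (-3.02 to -1.12), while H2-K1 and B2m stood at -0.01 and 0.04.

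Macrophage identity genes had a median close to that of all genes, while single members differed in both directions. The 17 measured of 18 markers had a median of 0.07 (-0.34 to 0.15 with a cell left out). Cd68 was at 0.09 (-0.02 to 0.21), Ctss at 0.07 (0.01 to 0.12) and Csf1r at 0.02 (-0.16 to 0.20), which was -0.98 without W10. Lyz2 stood at -0.53 (-0.55 to -0.50), and its cells overlapped. Adgre1 was at -0.39 (-0.59 to -0.19), and at -0.96 without W10, and Itgam at -0.43 (-0.70 to -0.16). Of the 17 markers, 5 had an interval above 0 and 6 one below 0, beside 1393 and 1235 of all 5882 genes. Their summed CPM had a log2 ratio of -0.33. The subunits of the complement starter C1q stood lower to different degrees: C1qb held past 2-fold at -3.00 (-3.94 to -2.18), with 325, 442 and 547 CPM in T13, F18 and W5 and 92.1 in T10 as the 1 drug-treated value above 0, but T11 and W20 were at 0 as well. C1qa was at -0.66 (-0.89 to -0.44) and C1qc at -1.29 (-1.70 to -0.89). Among 17 measured transcription factors and CSF receptors the median was 0.12. Maf (at least 4.48-fold lower, but at 0.76 with W14 put back), Cebpb (-1.79, with an interval from -4.20 to 0) and Tfec (-3.81, -9.18 to -1.19) held past 2-fold lower on 17 to 23 lactate counts, whereas Spi1, the lineage factor PU.1, was at -0.05 (-0.33 to 0.23).

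In central metabolism the medians lay near 0. Glycolysis had a median of -0.05 over 17 genes, with Aldoa at -0.11 (-0.24 to 0.02), Pkm at -0.43 (-0.56 to -0.31), Pgk1 at -0.92 (-1.38 to -0.47) and the phosphofructokinase Pfkp holding past 2-fold higher at 1.49 (0.72 to 2.28). Mitochondrially encoded proteins had a median of -0.26 over 13 genes, which became 0.01 without W20, and 75 ribosomal proteins one of -0.03. Fatty acid oxidation had a median of 0.13 over 23 genes and held opposite members: Cpt2, the inner-membrane carnitine palmitoyltransferase, was higher at 3.60 (2.25 to 5.30), with 28.3 to 147 CPM in the drug-treated cells against 55.2 CPM in F18, above T10 and F8, and 0 in the other lactate cells. Acadsb and Acad8, dehydrogenases of branched-chain acyl-CoA, were higher at 2.41 and 2.30. Etfdh, which passes electrons from these dehydrogenases to ubiquinone, was lower at -1.84 (-3.24 to -0.67), and Hadha at -1.08 (-1.70 to -0.50) did not hold past 2-fold.

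Hypoxia genes had a median of 0.61 over 12 measured genes, which was 0.08 without W10. Within T, F and W the median was 0.5, -0.35 and 0.83. Beside Epas1, Hilpda, a lipid-droplet protein that inhibits lipolysis, held past 2-fold higher at 63.7, 103, 77.5 and 107 CPM in T10, F8, F9 and W10 against 0 to 44.0 CPM (2.15, 1.24 to 3.15), and the groups did not overlap. Kdm3a, a histone demethylase, and Egln1, the prolyl hydroxylase that marks HIF proteins for degradation, held past 2-fold lower, at -3.54 (-6.63 to -1.58) and at least 5.49-fold. Hif1a was at 0.38 (-0.05 to 0.80) and Slc2a1, the glucose transporter, at 0.48 (0.13 to 0.82). Of 17 measured genes of serine and amino acid synthesis 3 held past 2-fold lower (all genes: 8.69%): Psph, the last enzyme of serine synthesis, at -3.54 (-6.63 to -1.58), Bcat1 at least 4.27-fold and Ass1, which links citrulline to arginine synthesis, at -1.74 (-2.58 to -0.98). Arg1, the best counted of them, was at 0.01 (-0.15 to 0.16) and at -1.20 without W10.

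Of 12 measured writers, readers and erasers of histone acetyl and lactyl marks, 2 held past 2-fold higher (all genes: 7.34%), among them the acetyltransferase Kat6a (at least 8.74-fold). Hdac2 (-2.99, -6.11 to -0.99), Brd3 (-1.99, -3.97 to -0.46) and Crebbp (-1.76, -2.73 to -0.89) held past 2-fold lower (all genes: 8.69%). The median of 0.52 was 0.79, 0.01 and -0.07 within T, F and W. Ep300, the partner of Crebbp, was at 0.33 (-0.84 to 1.45), on 13 and 17 counts. Of 17 measured apoptosis genes, Apaf1 of the apoptosome was higher at 1.52 (0.17 to 2.98), and Fas (at least 4.48-fold), its downstream protein Bid (-2.24, -4.20 to -0.74) and Ripk1 (-1.82, -2.96 to -0.84) held past 2-fold lower. The best counted member, Bcl2a1b, has near-identical copies that share its reads and stood at 0.16.

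**Figure D5:**
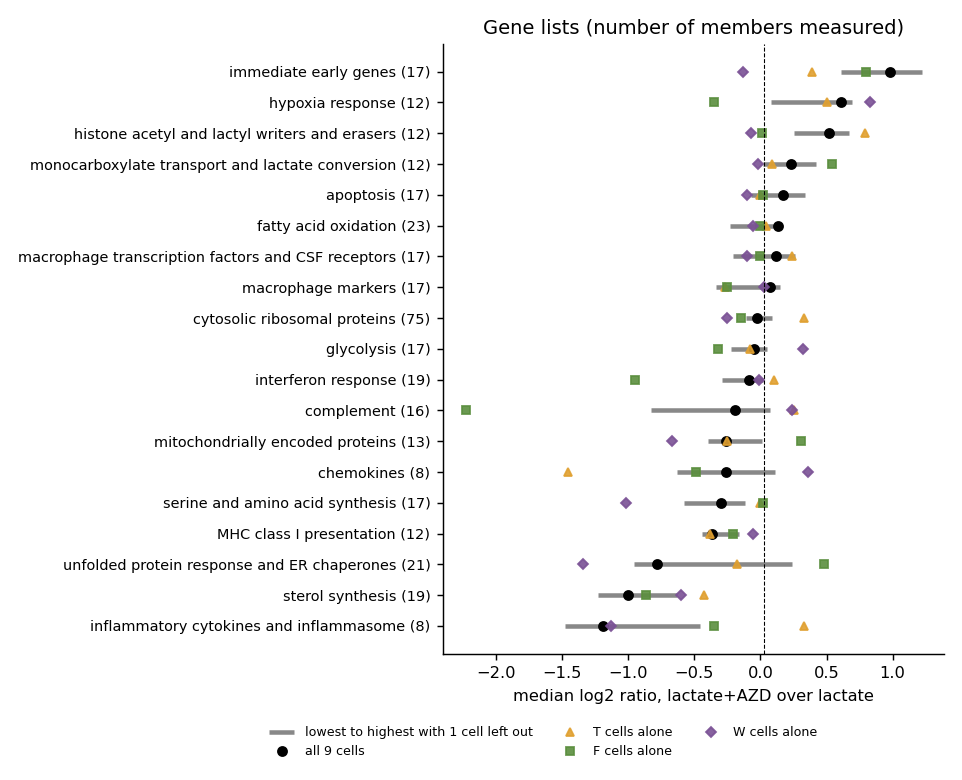
Median log2 ratio (lactate+AZD over lactate) of 19 gene lists, with the number of members measured in brackets; black points use the 9 cells, grey bars run from the lowest to the highest median with 1 cell left out, coloured points use T, F or W cells alone and the dashed line is the median of all 5882 genes. Sterol synthesis stayed below 0 throughout, whereas the bar of the unfolded protein response crosses 0 and its W point lies at -1.34.

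The study's text names 5 genes for this drug, Prps2, Armc8, Hilpda, Acadsb and Spin1. They were chosen on these same cells, so their values are no independent evidence of a direction. Each of the 5 held past 2-fold higher. Prps2, which makes the ribose donor of nucleotides, had 44.3 to 80.1 CPM in the lactate+AZD cells and at most 11.4 CPM in the lactate cells (4.52, 2.53 to 7.63). Armc8 had 28.3 to 103 CPM against at most 22.1 CPM (3.24, 1.69 to 5.23). Spin1 had 40.1 to 99.1 CPM against at most 44.2 CPM in F18 (2.40, 1.28 to 3.66), and W10 lay below F18.

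In the lactate experiment of the series 8 other cells treated with lactate were set against 8 control cells, with no cell shared. Of 5291 genes that matched by symbol and had 10 or more counts there, 445 (8.41%) were 2-fold or more higher with lactate and 484 (9.15%) lower in the sums. Of 396 matched genes that held past 2-fold higher with AZD3965, 36 (9.09%) were higher and 40 (10.1%) lower with lactate. Of 470 that held past 2-fold lower with AZD3965, 59 (12.6%) were higher and 75 (16%) lower with lactate. Of these cells, 7 of the 8 lactate cells and 5 of the 8 control cells had fibroblast or mesothelial markers below 10% of their macrophage markers. The single-gene ratios that follow rest on sums over all the cells. They are given without intervals and not without the marker-carrying cells. Side by side, Epas1 stood at 1.58 with lactate over control and at 1.57 with AZD3965 over lactate alone. Spp1 was lower in both, at -2.71 and -2.54, and Cebpd at -1.07 and -4.09. Clec4n was at -0.64 with lactate, and Dusp1 and Egr2 at 0.81 and 0.97. Ifngr1, lower with AZD3965, was at -0.01 with lactate, and Idi1, Sqle and Hsd17b7 at 0.07, 0.59 and 0.20. Med23 and Dip2b were lower with lactate, at -1.41 and -0.86, and higher with AZD3965.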

How the data were processed

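Single-cell SMART-seq2 libraries of macrophages were analysed from the whole-number counts per gene deposited by the authors, without normalization. Per the labels and methods, reads were trimmed with fastp 0.20.0, aligned to mm10 with HISAT2 2.1.0 and assigned to genes with StringTie after 20 cycles of PCR, without molecular identifiers. Strand was not kept, so reads of overlapping genes cannot be told apart. Count 2 was found 6215 times in the table and count 1 1914 times, so 1 count may not be 1 read. Intervals and floors assume that it is.

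CPM, log2 ratios and intervals were computed from these counts in Python 3.11.15 (scipy 1.17.1 for intervals, pandas 2.3.3 and numpy 2.4.6 for tables, matplotlib 3.10.9 for figures), and TMM factors with edgeR 4.0.16 in R 4.3.3. Coordinates came from GENCODE M21 (GRCm38) and promoters from RefSeq. The procedure was run on simulated counts whose cells within a group differed by counting error only. The real cells spread more widely, so that run cannot show how the calls behave with such spread. The table lists 35624 symbols, and 64 gene lists were used. The cells, lists and tests were chosen with earlier results of these data known. Named genes are the 15 in each direction with the largest ratio after the least favourable cell was left out (50 CPM or more in the higher group, counts in 3 or more of its cells, no predicted genes), the members of described lists that held past 2-fold, the best counted members, the monocarboxylate transport genes and the genes the study names for AZD3965. Other genes were named after their values were seen. Alternatives were other averages and scalings, other filters, W14 put back, W5 left out, single cells left out, ratios within letters and halved counts. Values of some genes that these rules would name are not reported here.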

Additional observations from a re-analysis of the deposited data

Results flagged for a closer look

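Single cells stood apart from the others of their group 25 times in 100 groups of 4 or 5 values examined. The rule is set to flag about 1 in 20 groups of unselected, normally distributed values. That rate cannot be set against the 25, because many of the groups are of genes chosen for their values in these cells. Cell T10 had 6700 detected genes against 4812 to 5020 in the other drug-treated cells. For summed CPM, F9 stood apart for sterol synthesis (1380), W10 for chemokines (3140), F18 for sterol synthesis (2640) and the interferon response (3340), W20 for the unfolded protein response (19800) and W5, the low cell, for macrophage transcription factors and CSF receptors (3570). For the remaining genes 1 cell of a group held all of its counts. Among the lactate cells these were W20 for Dusp1 (30.8 CPM), Suco (12.3), Rab29 (18.5) and Pex11a (12.3), T11 for Dip2b (6.28), Sfpq (12.6) and Zfp869 (12.6), and T13 for Trmt10c (11.4), Prps2 (11.4) and Herc6 (22.8). Among the drug-treated cells these were T10 for Clec4n (77.9), Cebpd (21.2), Snx19 (21.2), Il4ra (14.2) and Cdk5rap3 (14.2), F9 for Ammecr1l (22.1) and Glyr1 (22.1), and W10 for Vcl (13.4). These genes had been named for a near absence in that group, so a single cell with counts met the rule by construction.

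Cell W14, left out of the comparisons of the report, had 7500 CPM of Sparc and 4350 CPM of Col1a2, against at most 3310 and 922 CPM in the other cells. Its fibroblast markers added up to 31400 CPM, 107% of its macrophage markers, and 5 of 10 mesothelial markers had counts in it.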

How the results depend on the processing

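The counts of genes that held past 2-fold and the median of 0.03 moved as follows. With the median of per-cell CPM 1068 genes were lower. TMM factors moved the median to -0.155, a shift of -0.185, and gave 346 higher and 650 lower genes, so that 34.7% of the calls were higher in place of 45.8%. On the scale log2(CPM/100 + 1), which compresses low values, 4 genes were higher and 3 lower. A filter of 100 counts left 37 and 30, a detection limit of 5 counts 227 and 325, and ratios averaged within letters 186 and 114. With detection in 5 of the 9 cells 264 were lower, and with halved counts 310. With W14 put back 667 were higher and the median was 0.14; the median of the inflammatory list then turned to 0.14, and the ratios of Il4ra, Sqle, Casp4 and Maf to 0.26, 0.52, 0.18 and 0.76. With single cells left out, 271 (without F8) to 493 genes were higher, 308 (without W10) to 501 lower, and the median ran from -0.096 to 0.122; without T10 286 were higher. The median of the unfolded protein response ran from -0.96 (without T11) to 0.24 (without W20, the one setting where it turned its sign). In the lactate experiment, without cells that carry fibroblast or mesothelial markers, 59 of the higher genes (15.1%) and 98 of the lower genes (21.1%) were 2-fold or more higher with lactate and 49 and 83 lower, while the share over all genes was 13.3% higher and 11.3% lower. The cause of these moves was not tested. No paired analysis was possible by cell number because the groups share none; averaging within letters, above, is the nearest to it.

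For single named genes under the alternatives that leave out no single cell, 794 values stayed within the counting interval of the reported ratio, 182 moved past it and 4 turned their sign. Depth limits what can be read: 3 counts correspond to 6.82 CPM in the lactate+AZD sum and 4.16 CPM in the lactate sum, and to 17.1 to 51.3 CPM in a single cell.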
